A study of Mus musculus with 11 samples.

Results

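The genes described here encode the machinery that brings newly made secretory and membrane proteins into the endoplasmic reticulum (ER) and makes their first modifications there. They are 34 genes, chosen by symbol from the 32285 genes of the count table, and fall by role into the translocon and its partners (6 genes), the translocon-associated protein complex TRAP (4 genes), the signal recognition particle and its receptor (7 genes), signal peptidase (5 genes) and oligosaccharyltransferase (12 genes). As background, the signal recognition particle binds the signal peptide of a protein as it leaves the ribosome and carries the ribosome to its receptor on the ER membrane. The protein then passes through the Sec61 channel, signal peptidase cuts off the signal peptide, and oligosaccharyltransferase joins a preformed glycan to asparagines. In beta cells of the pancreatic islet the precursor of insulin takes this route, and TRAP is known to help it through the channel.

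RNA was sequenced from islets of 16-week-old mice with a deletion of Zzef1 in beta cells but not in the other cells of the islet, named βZKO-Mip in the labels, and of their littermates without it. Both genotypes had eaten a high-fat diet for 4 weeks, and the islets were then kept for 24 h with 10 µM azoramide, a compound described as raising the folding capacity of the ER, or with DMSO. The control genotype gave 3 libraries with DMSO and 3 with azoramide, and the genotype labelled knockout gave 2 with DMSO and 3 with azoramide. A library pooled at least 3 mice of 1 genotype, the labels do not say whether libraries shared mice, and p-values therefore measure the spread between these 11 libraries, which may be in part technical. What "Mip" stands for is not spelled out in the labels.

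Depth was 16832800 to 19501813 counts per library, and the 34 genes held between 524 counts (Tmem258) and 10004 counts (Ssr3) in a library. Zzef1 itself lay at 85.4 to 110 CPM (counts scaled to library size) in control islets with DMSO and at 79.4 to 83.5 CPM in labelled-knockout islets with DMSO, and with azoramide at 64.3 to 68.1 and 68.7 to 77.7 CPM, so the genotype is used here as a label only. The 7 beta cell markers, Ins1 and Ins2 among them, summed to between 129500 and 192400 CPM in the 11 libraries. Library 2 of control DMSO and library 3 of labelled-knockout azoramide lay at opposite ends of the second principal component (11.8% of the variance), while the first (38.2%) separated azoramide from DMSO.

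Azoramide against DMSO in control islets gave 27 of the 34 genes higher and 0 lower at an adjusted p under 0.05 (edgeR quasi-likelihood test, Benjamini-Hochberg over 15093 genes), where 19.3% of the genes tested were called higher and 19.8% lower (39% in all). In labelled-knockout islets 29 rose and 0 fell, against 20% and 19.8% of the genes tested (39.8% in all). The median log2 fold change of the 34 genes was 0.51 in control islets and 0.59 in labelled-knockout islets, beside -0.02 and -0.00 over the genes tested. All 34 genes passed the filter on low counts. The DESeq2 Wald test called 28 and 29. Signal peptidase rose in full, with 5 of 5 genes in both genotypes, and oligosaccharyltransferase with 11 of 12 in both. TRAP rose with 3 of 4 and 4 of 4, the signal recognition particle with 4 of 7 and 5 of 7, and the translocon with 4 of 6 in both. These counts by role depended on the scaling, as given below with an offset for length and GC content and with plain library totals. Sec61a1, Sec63, Srp68, Srprb and Stt3b were called in neither genotype, and Ssr1 and Srp72 were called in labelled-knockout islets and not in control islets.

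Summed over the 34 genes, the share of counts was 0.596% ± 0.040 (SD, n = 3) in control islets with DMSO and 0.732% ± 0.024 (SD, n = 3) with azoramide. It was 0.596% ± 0.0036 (SD, n = 2) in labelled-knockout islets with DMSO and 0.768% ± 0.034 (SD, n = 3) with azoramide. The highest DMSO library held 0.628% and the lowest azoramide library 0.7045%, so that the treatments did not overlap. In bulk islets a change in the number of cells of a type and a change in RNA per cell cannot be told apart.

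**Figure D1:**
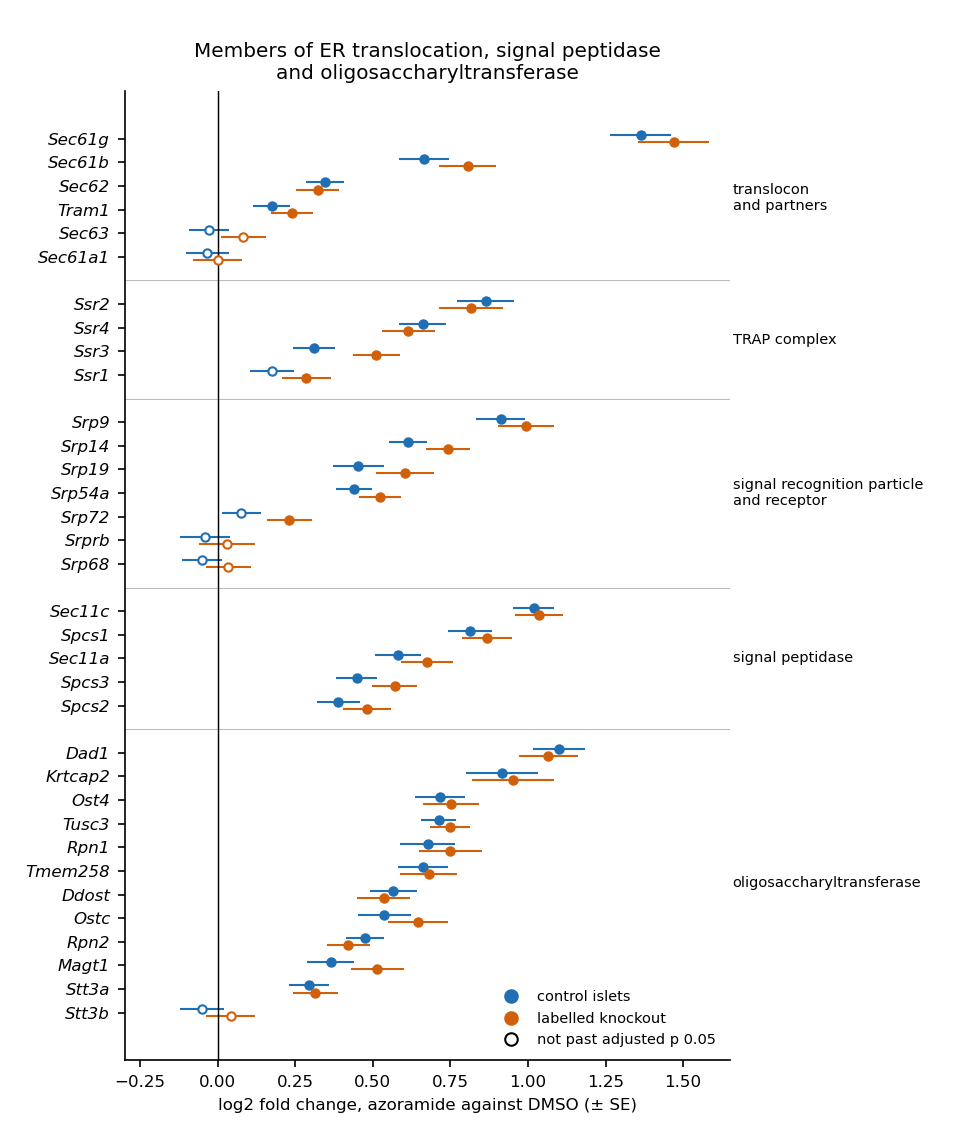
Log2 fold change of azoramide against DMSO (horizontal axis, with SE as bars) for the 34 genes by role, in control islets (blue) and labelled-knockout islets (orange); open points did not pass an adjusted p of 0.05. Sec61g lies farthest right in both, at 1.36 and 1.47, and the 5 genes open in both lie between -0.05 and 0.08.

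Some markers of other cell types also differed between the treatments. The 6 macrophage markers summed to 39.33 to 50.65 CPM with DMSO and 53.63 to 68.8 CPM with azoramide in control islets. In labelled-knockout islets they summed to 42.24 to 43.33 and 56.87 to 97.1 CPM, with 1 of 6 called higher in each genotype. Much of the difference in the sum was Cd68, with means of 16.2 and 33.5 CPM in control and 14.1 and 38.8 CPM in labelled-knockout islets. Of the 6, 4 had a positive log2 fold change in control islets and 6 in labelled-knockout islets. Adgre1 (1.125 and 0.836 CPM) and Csf1r (6 and 5.21 CPM) were lower with azoramide in control islets. The 5 stellate and fibroblast markers summed to 18.03 to 20.14 and 12.23 to 16.89 CPM in control islets, with 2 called lower, and to 21.04 to 24.79 and 11.44 to 19.26 CPM in labelled-knockout islets, with 1 called lower. The 5 ductal markers summed to 941.6 to 1203 and 1157 to 1548 CPM in control islets, which overlapped, with 1 of the 4 tested called higher. They summed to 1138 to 1152 and 1276 to 1522 CPM in labelled-knockout islets, with 0 of 4 called. Spp1 (mean 691.1 CPM) and Krt7 (mean 546.6 CPM) made up most of the ductal sum. In labelled-knockout islets Krt7 did not rise (means 540.7 and 529.4 CPM). The 5 endothelial markers stayed within 282.5 to 364.1 CPM, with 2 called lower in each genotype, and the 5 lymphocyte markers at 0.86 to 2.1 CPM. The 7 beta cell markers summed to 139200 to 142100 and 151600 to 192400 CPM in control islets, 3 of them called higher and 3 called lower. In labelled-knockout islets they summed to 129500 to 132700 and 140600 to 174400 CPM, 2 of them higher and 3 lower. Ins2, Ins1 and Iapp made up most of this sum. In control islets the mean of Ins2 went from 84900 to 113700 CPM and that of Iapp from 20490 to 34890 CPM, while that of Ins1 went from 32780 to 23880 CPM. In both genotypes Ins2, Iapp and G6pc2 had higher means with azoramide, and Ins1, Slc2a2, Mafa and Pdx1 lower ones. The 13 acinar markers, which make digestive enzymes, ranged from 557.3 to 6123 CPM with overlap between treatments and none called, and with their level as a covariate 27 and 29 of the 34 genes were still called (medians 0.48 and 0.55). The part of the other cell types in the results was not tested.

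Promoters were examined because the genes moved together and because many ER genes are known targets of the transcription factors XBP1 and ATF6. RefSeq (GRCm38.p6) gave 28 windows of 250 bases before to 50 bases after a start for 25 of the 34 genes. Ostc, Sec11c, Sec61a1, Spcs3, Srp19, Srp68, Ssr2, Tram1 and Tusc3 had none in the set used. On both strands, the ER stress element, CCAAT and CCACG with 9 bases between them, was in 0 of the 25 genes (0.137% of 27025 genes). Its second form, ATTGG and CCACG with 1 base between them, was in 1, Krtcap2 (0.0444% of genes). The unfolded protein response element TGACGTGG was in 0 (0.714%). The shorter core ACGTGG, which the longer element TGACGTGG contains, was in 6 of the 25 (24%) and in 9.4% of all genes. Its holders were Krtcap2, Spcs1 and Ssr3, which rose in control islets, and Sec63, Srprb and Ssr1, which were not called there. CCAAT alone was in 14 of the 25 genes (56%) and 41.1% of all genes. A match describes these letters and not a binding site. The 6 stretches that follow run from 150 to 11 bases before the start of each gene, 5′ to 3′ on the gene's strand (GRCm38.p6), with the core or its reverse complement CCACGT in capitals. They set 3 genes that rose without a core in this stretch (Sec61g, Srp9, Rpn1) beside 3 that were not called in control islets, Ssr1 with 2 cores, Sec63 with 1 and Stt3b with none. These 6 are examples and leave out the 3 holders of the core that rose. Of those, Krtcap2 and Spcs1 (at -60) hold a core in the same stretch. In Krtcap2 it stands at -20 from 1 annotated start and at -55 from another, which may be the same core. Whether the core goes with the rise was not tested.
Sec61g, chr11:16508495-16508634, minus strand: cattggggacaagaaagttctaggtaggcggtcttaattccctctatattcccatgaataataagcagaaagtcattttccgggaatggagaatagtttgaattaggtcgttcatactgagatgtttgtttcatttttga
Srp9, chr1:182124587-182124726, plus strand: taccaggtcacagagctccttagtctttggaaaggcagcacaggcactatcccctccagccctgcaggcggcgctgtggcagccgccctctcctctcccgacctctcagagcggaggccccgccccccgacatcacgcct
Rpn1, chr6:88084323-88084462, plus strand: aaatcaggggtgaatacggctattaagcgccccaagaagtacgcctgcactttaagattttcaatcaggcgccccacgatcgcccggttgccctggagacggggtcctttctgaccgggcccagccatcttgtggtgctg
Ssr1, chr13:37994219-37994358, minus strand: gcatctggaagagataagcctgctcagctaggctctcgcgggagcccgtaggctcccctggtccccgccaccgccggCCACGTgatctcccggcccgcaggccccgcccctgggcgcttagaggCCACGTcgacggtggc
Sec63, chr10:42761346-42761485, plus strand: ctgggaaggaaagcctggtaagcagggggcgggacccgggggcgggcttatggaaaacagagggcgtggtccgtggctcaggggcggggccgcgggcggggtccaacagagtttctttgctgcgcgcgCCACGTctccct
Stt3b, chr9:115310479-115310618, minus strand: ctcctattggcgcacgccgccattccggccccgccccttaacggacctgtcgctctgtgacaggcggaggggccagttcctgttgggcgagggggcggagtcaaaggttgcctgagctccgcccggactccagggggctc
In these sequences the core stands 73 and 26 bases before the start in Ssr1 and 22 bases before it in Sec63.

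Of the channel itself, the small subunits rose and the pore did not pass the test. Sec61g (chr11:16500530-16508484, minus strand, GRCm38), which encodes the single-pass gamma subunit, stood at 75.3, 91.0 and 97.8 CPM in control islets with DMSO and at 218, 227 and 235 CPM with azoramide. It stood at 78.5 and 79.6 CPM with DMSO and at 188, 226 and 243 CPM with azoramide in labelled-knockout islets. The lowest azoramide library was above the highest DMSO library, and the rise was 1.36 (SE 0.10, edgeR adjusted p = 1.95e-07) and 1.47 (SE 0.11, adjusted p = 5.36e-07) on the log2 scale, the largest of the 34 in both genotypes.

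Sec61b (chr4:47474658-47483242, plus strand), the beta subunit and the translocon gene with the highest level per length, read 61.7, 66.8 and 67.7 CPM in control islets with DMSO and 98.5, 106 and 107 CPM with azoramide. Labelled-knockout islets gave 57.6 and 62.8 CPM with DMSO and 91.5, 105 and 119 CPM with azoramide. The treatments did not overlap, and the rise was 0.66 (SE 0.08, edgeR adjusted p = 7.62e-06) and 0.81 (SE 0.09, adjusted p = 4.42e-06). Sec61a1 (chr6:88503579-88518905, minus strand), which encodes the alpha subunit that forms the pore, is given in full because its value stood out once seen. It read 267, 289 and 337 CPM in control islets with DMSO and 279, 292 and 301 CPM with azoramide, and 288 and 293 against 286, 288 and 296 CPM in labelled-knockout islets. These ranges overlapped, and the differences were -0.03 (SE 0.07) and -0.00 (SE 0.08), with no call; with plain library totals Sec61a1 fell in control islets (-0.20).

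Among the partners of the channel, Sec62, a membrane protein that serves import after translation, rose by 0.35 (SE 0.06) and 0.32 (SE 0.07). Sec63, its partner with a domain that recruits the chaperone BiP, was at -0.03 (SE 0.06; -0.20 and called with plain library totals) and 0.08 (SE 0.07; -0.07 with plain totals). Tram1, which contacts the chain inside the membrane, rose by 0.17 (SE 0.06, edgeR adjusted p = 0.029) and 0.24 (SE 0.07, adjusted p = 0.00867), but was at -0.06 and -0.05 with the offset for length and GC content described below. The Tram1 calls were the weakest of the translocon: in control islets it was 0.11 without DMSO library 3 and 0.16 without azoramide library 2 or 3, none of them called, and it lost the call in labelled-knockout islets without DMSO library 1 or 2 (0.24 each). Short stretches of Sec61g and Sec61b recur in other annotated genes (18.2% and 9.7% of their 100-base words), so a part of their reads may be split by the counting. Gm10320, which shares sequence with Sec61b, held 0 to 5 counts per library. Gm10177 and Gm11575, which share sequence with Sec61g, were not among the genes of the count table.

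TRAP has alpha, beta, gamma and delta subunits, encoded by Ssr1 to Ssr4. Ssr4 (chrX:73787028-73790830, plus strand), the delta subunit, had the highest level per length of the 34 genes, 331.3 CPM per kilobase as the mean of the 11 libraries. It read 181, 207 and 227 CPM in control islets with DMSO and 303, 332 and 338 CPM with azoramide, and 194 and 210.3 against 299, 302 and 328 CPM in labelled-knockout islets. No azoramide library fell within the DMSO range, and Ssr4 rose by 0.66 (SE 0.08, edgeR adjusted p = 3.73e-06) and 0.61 (SE 0.09, adjusted p = 2.84e-05).

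Ssr2 (chr3:88575876-88588419, plus strand), the beta subunit, rose most within the complex. Its levels in control islets were 129, 157 and 173 CPM with DMSO and 271, 273 and 291 CPM with azoramide. In labelled-knockout islets they were 156 and 159.9 CPM with DMSO and 252, 282 and 300.6 CPM with azoramide. The treatments were apart in both genotypes, by 0.86 (SE 0.09, edgeR adjusted p = 4.21e-06) and 0.82 (SE 0.10, adjusted p = 2.32e-05). Ssr3, the gamma subunit, rose by 0.31 (SE 0.07) and 0.51 (SE 0.08). Ssr1, the alpha subunit, had the longest exonic length of the 34 (10227 bases, all annotated exons joined). It was at 0.17 (SE 0.07, edgeR adjusted p = 0.0577) in control islets and rose by 0.28 (SE 0.08, adjusted p = 0.00798) in labelled-knockout islets. Ssr1 was called in control islets without control DMSO library 2 (0.25) or without labelled knockout azoramide library 3 (0.18), was at 0.099 and not called without control DMSO library 3, and lost the other call without labelled knockout DMSO library 2 (0.26).

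Within the signal recognition particle, 4 of 6 protein subunits rose in control islets and 5 of 6 in labelled-knockout islets. Srp9 and Srp14, a dimer at the end of the particle that slows elongation, rose in both genotypes, by 0.91 and 0.61 in controls and 0.99 and 0.74 in labelled-knockout islets. Srp9 (chr1:182124737-182132407, plus strand) had both the highest level per length and the largest rise of this group. It stood at 89.9, 104 and 115 CPM in control islets with DMSO and at 180.4, 198 and 202 CPM with azoramide. The labelled-knockout libraries stood at 94.0 and 98.0 CPM with DMSO and at 183, 186 and 204 CPM with azoramide. Its treatments did not overlap (SE 0.08 and 0.09, edgeR adjusted p = 1.71e-07 and 4.19e-07). Sequence shared with a further annotated locus covers 12.1% of its 100-base words.

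Srp19, which helps assemble the particle, rose by 0.45 (SE 0.08) and 0.60 (SE 0.09), but was at -0.20 and -0.14 with the offset for length and GC content. Srp54a, whose protein binds the signal peptide, rose by 0.44 (SE 0.06) and 0.52 (SE 0.07), but 72.1% of its 100-base words are shared with its copies Srp54b and Srp54c, so its value cannot be told apart from theirs. Srp54b was at 0.37 and 0.73 and not called (adjusted p = 0.411 and 0.161), and Srp54c rose by 0.31 and 0.42, with its control call ended by the offset (0.18) and by plain library totals (0.14). Srp68 and Srp72 encode the other dimer of the particle. Srp68 (chr11:116245166-116274217, minus strand), shown because of its value once seen, read 106, 107 and 124 CPM in control islets with DMSO and 108, 108 and 109 CPM with azoramide, and 105 and 109.6 against 104, 113 and 113 CPM in labelled-knockout islets. These ranges overlapped, and the differences were -0.05 (SE 0.06) and 0.03 (SE 0.07), which plain library totals moved to -0.22, a fall, and -0.12. Srp72 was at 0.08 (SE 0.06) in control islets and rose by 0.23 (SE 0.07, adjusted p = 0.0155) in labelled-knockout islets, a call that ended without DMSO library 1 (0.20) or 2 (0.26) of that genotype. Srprb, the subunit that anchors the receptor in the membrane, was at -0.04 (SE 0.08) and 0.03 (SE 0.09); a further gene model on the same strand covers 29% of its exonic length.

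All 5 signal peptidase genes rose in both genotypes. Sec11c and Sec11a encode alternative catalytic subunits. Sec11c read 139, 151 and 162 CPM in control islets with DMSO and 291, 301 and 322 CPM with azoramide, and 145 and 147 against 285, 294 and 319 CPM in labelled-knockout islets. Its lowest azoramide library exceeded its highest DMSO library, and it rose by 1.02 (SE 0.07, edgeR adjusted p = 7.44e-09) and 1.03 (SE 0.08, adjusted p = 6.76e-08), the smallest adjusted p of the 34 in each genotype.

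Sec11a (chr7:80904889-80947780, minus strand) read 43.9, 48.9 and 51.3 CPM in control islets with DMSO and 67.3, 73.6 and 74.8 CPM with azoramide. It read 44.2 and 48.1 CPM with DMSO and 69.0, 75.2 and 77.0 CPM with azoramide in labelled-knockout islets. The treatments were apart, with a rise of 0.58 (SE 0.07, edgeR adjusted p = 1.06e-05) and 0.68 (SE 0.08, adjusted p = 8.63e-06). Of the other subunits, Spcs1 rose by 0.81 and 0.87, Spcs2 by 0.39 and 0.48, and Spcs3, which is needed for cleavage, by 0.45 and 0.57, each with an SE of 0.07 to 0.08. With the offset for length and GC content the rises were still called but mostly smaller: 0.52 and 0.48 for Sec11c, 0.22 and 0.27 for Sec11a, 0.26 and 0.25 for Spcs1, 0.22 and 0.28 for Spcs3, and 0.39 and 0.46 for Spcs2. A part of Spcs1 (19.5% of its exonic length) overlaps Glt8d1 on the opposite strand, and whether the counting used strand is not given in the sources used here.

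Oligosaccharyltransferase exists in alternative forms, built on Stt3a or Stt3b as the catalytic subunit, with Rpn1, Rpn2, Ddost, Dad1, Ost4 and Tmem258 as shared subunits. Dad1 (chr14:54235479-54254104, minus strand), a small shared subunit, rose most. It read 84.0, 97.8 and 105 CPM in control islets with DMSO and 185, 209 and 220.1 CPM with azoramide, and 93.6 and 97.5 against 186, 199 and 215 CPM in labelled-knockout islets. The treatments did not overlap, and Dad1 rose by 1.10 (SE 0.08, edgeR adjusted p = 6.78e-08) and 1.07 (SE 0.10, adjusted p = 5.42e-07).

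Rpn2 (chr2:157279017-157326319, plus strand), ribophorin II, had the highest level per length of this complex. In control islets it was at 349, 387 and 397 CPM with DMSO and at 494, 539 and 542 CPM with azoramide. Labelled-knockout islets gave 384 and 389.9 CPM with DMSO and 494, 527 and 532 CPM with azoramide. Its groups were apart, and it rose by 0.48 (SE 0.06, edgeR adjusted p = 1.3e-05) and 0.42 (SE 0.07, adjusted p = 1.33e-04). Rpn1, ribophorin I, rose by 0.68 (SE 0.09) and 0.75 (SE 0.10), and Ddost by 0.57 (SE 0.08) and 0.54 (SE 0.09). Ost4 rose by 0.72 and 0.75 and Tmem258 by 0.66 and 0.68. Opposite-strand genes overlap 51.2% of the exonic length of Ost4 (Agbl5) and 18.6% of that of Tmem258 (Fen1). Agbl5 itself fell by 0.35 and 0.58. Fen1 rose by 0.42 in control islets (edgeR adjusted p = 0.0279) and was at 0.12 and not called in labelled-knockout islets.

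The form-specific subunits rose on both sides. Ostc and Krtcap2, which dock the Stt3a form at the translocon, rose in controls by 0.54 (SE 0.09) and 0.92 (SE 0.12), and in labelled-knockout islets by 0.65 (SE 0.10) and 0.95 (SE 0.13). Tusc3 and Magt1, alternative oxidoreductase subunits of the Stt3b form, rose by 0.71 (SE 0.06) and 0.36 (SE 0.08), and by 0.75 (SE 0.06) and 0.51 (SE 0.09). Tusc3 (chr8:39005845-39165114, plus strand) read 95.7, 98.4 and 98.9 CPM in control islets with DMSO and 155, 156 and 169 CPM with azoramide, and 94.1 and 96.4 against 154, 163 and 164 CPM in labelled-knockout islets. Magt1 (chrX:105968084-106011906, minus strand) read 106, 132 and 134 CPM in control islets with DMSO and 154, 159 and 167 CPM with azoramide, and 117 and 123 against 168, 171 and 176 CPM in labelled-knockout islets. Both genes were higher in each azoramide library than in any DMSO library.

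Of the catalytic subunits, Stt3a rose under TMM scaling and Stt3b was not called. Stt3a (chr9:36729344-36767679, minus strand), which glycosylates chains as they enter through the channel, read 222, 246 and 270.4 CPM in control islets with DMSO and 294, 302 and 309 CPM with azoramide, and 247 and 248 against 303, 309 and 312 CPM in labelled-knockout islets. It rose by 0.29 (SE 0.06, edgeR adjusted p = 0.00147) and 0.31 (SE 0.07, adjusted p = 0.00212). The Stt3a calls ended with plain library totals in both genotypes (0.13, adjusted p = 0.104, and 0.16, adjusted p = 0.0715) and with the offset for length and GC content in labelled-knockout islets (0.20, adjusted p = 0.0626). Stt3b (chr9:115242581-115310421, minus strand), known to act on sites the Stt3a form skips, read 97.3, 105 and 114 CPM in control islets with DMSO and 93.8, 100.1 and 111 CPM with azoramide, and 100.2 and 101 against 98.5, 104 and 108 CPM in labelled-knockout islets. The Stt3b ranges overlapped, and its differences were -0.05 (SE 0.07) and 0.04 (SE 0.08), which plain library totals moved to -0.22, a fall, and -0.115.

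**Figure D2:**
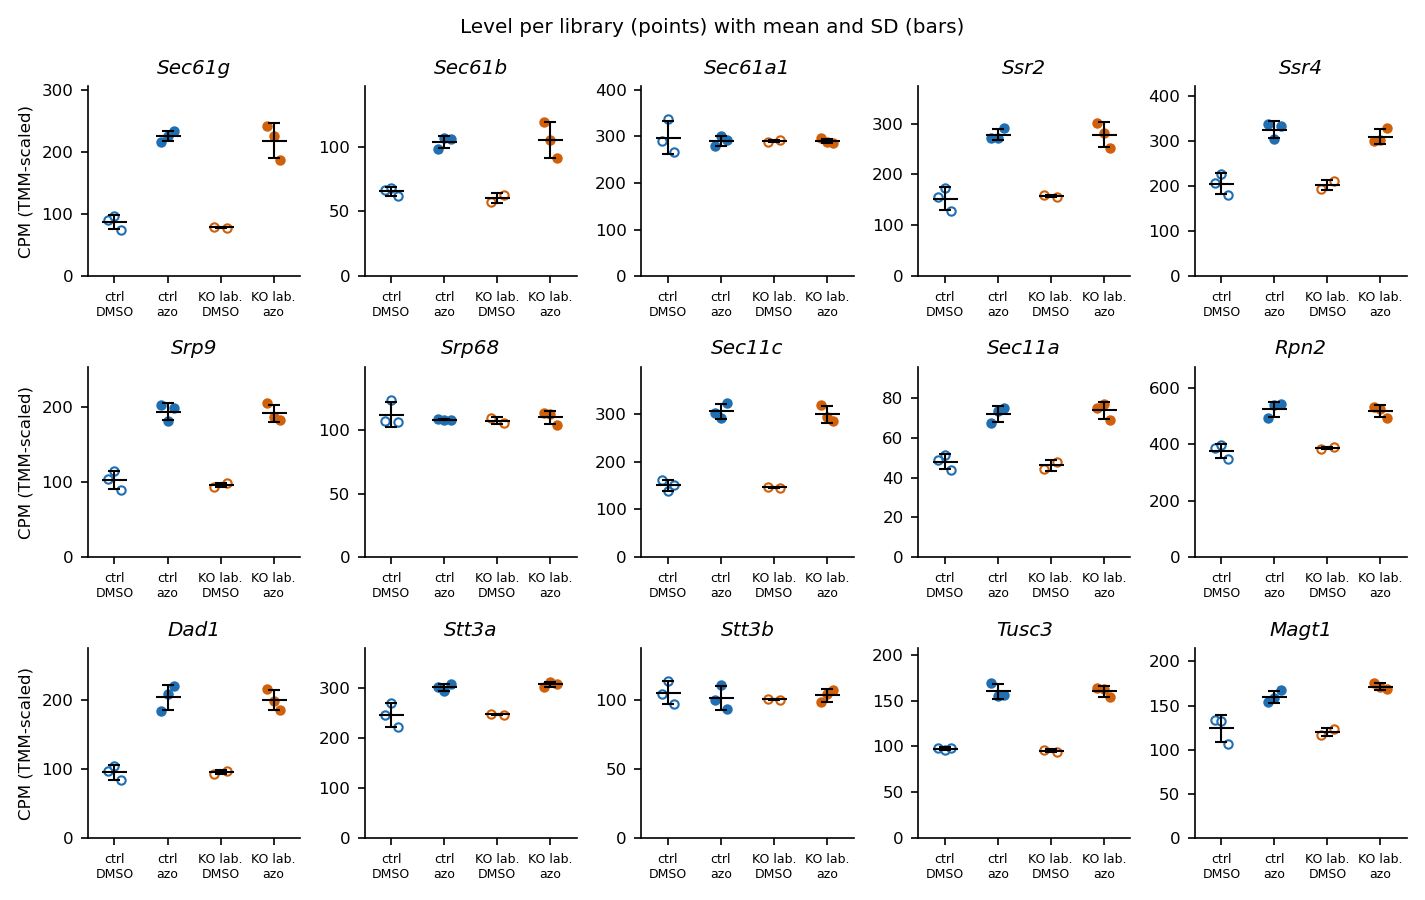
Level per library in CPM after TMM scaling (vertical axis, from 0) of 15 genes in the 4 groups, with DMSO as open and azoramide as filled points, control in blue and labelled knockout in orange, and the mean and SD as bars. In Sec61g, Sec11c and Dad1 the azoramide points lie clear above the DMSO points, and in Sec61a1, Srp68 and Stt3b the points of the 4 groups share 1 range.

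Because 3 pairs of these genes encode alternative subunits of the same kind, the ratio within each pair was compared in each library. The log2 ratio of Stt3a to Stt3b was 1.19 to 1.25 in control islets with DMSO and 1.41 to 1.72 with azoramide, and 1.29 to 1.30 against 1.52 to 1.62 in labelled-knockout islets. The log2 ratio of Sec11c to Sec11a was 1.44 to 1.77 against 1.98 to 2.16 in control islets, and 1.59 to 1.73 against 1.93 to 2.08 in labelled-knockout islets. The log2 ratio of Tusc3 to Magt1 was -0.47 to -0.11 against -0.10 to 0.13 in control islets, and -0.39 to -0.28 against -0.13 to -0.07 in labelled-knockout islets. For each pair the azoramide libraries were higher than the DMSO libraries of the same genotype. The mean differences were 0.31, 0.40 and 0.29, each with p = 0.005 in a two-sided exact permutation test within genotype (200 arrangements, n = 11, the smallest p this design allows; 0.005 after adjustment over the 3 pairs). With the trend over length and GC content taken off, the Stt3a to Stt3b difference was 0.12 (0.19 in control and 0.058 in labelled-knockout islets). That of Sec11c to Sec11a was 0.26 (0.30 and 0.21), with exact permutation p = 0.01, adjusted 0.015, for both pairs. The Tusc3 to Magt1 difference was -0.05 (exact permutation p = 0.48). By genotype this last difference was -0.0011 in control islets and -0.11 in labelled-knockout islets, where the 3 azoramide libraries (-0.26 to -0.20) lay below both DMSO libraries (-0.16 and -0.07), opposite to the ratio as measured.

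**Figure D3:**
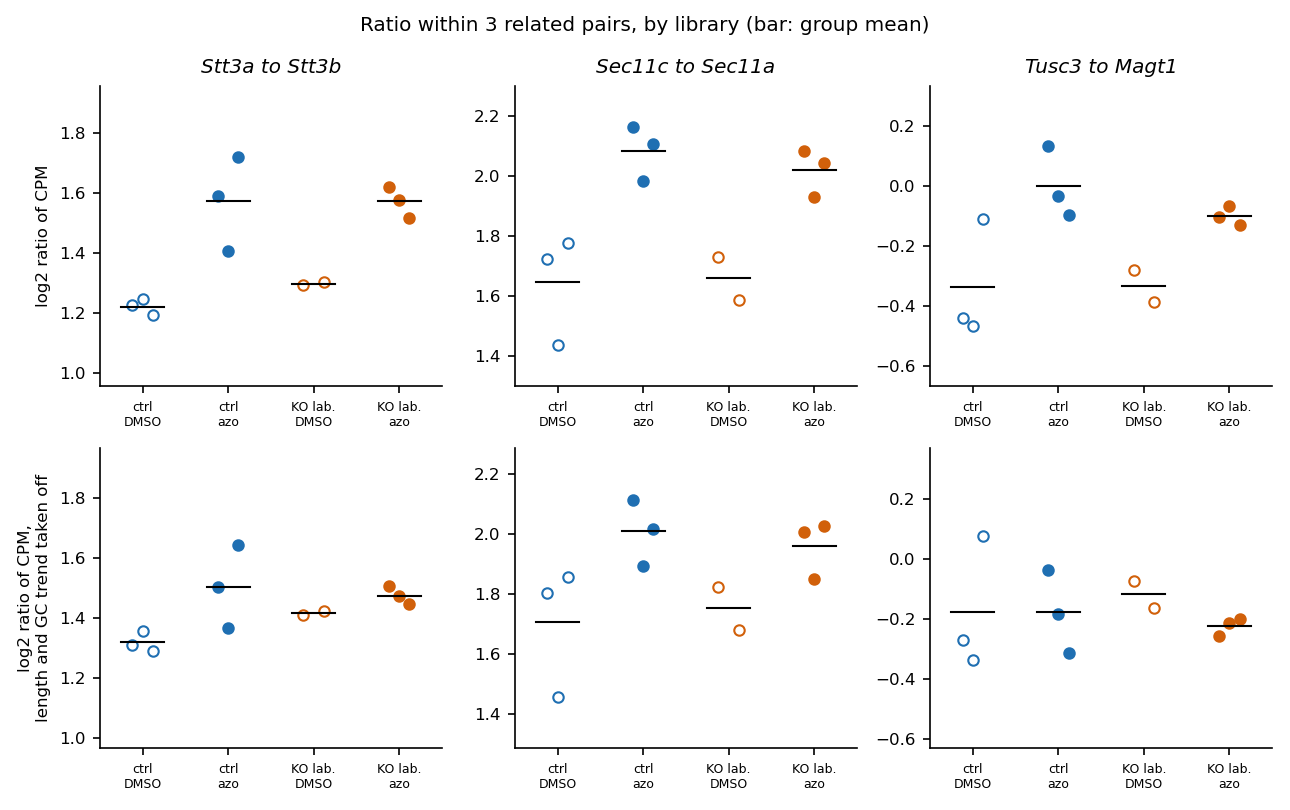
Log2 ratio of CPM within 3 pairs of alternative subunits (vertical axis) for each library of the 4 groups, with the group mean as a bar, as measured (top) and with each library's trend over length and GC content taken off (bottom). The azoramide points lie above the DMSO points of their genotype in the top row, and for Tusc3 to Magt1 the bottom row shows overlap in control islets and the azoramide points below the DMSO points in labelled-knockout islets.

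The size of the rise was related to exonic length, as it was over all genes tested. This length joins the exons of all annotated transcripts of a gene, so it can exceed the length of any 1 transcript. Across the 34 genes the log2 fold change and log2 exonic length had a Pearson r of -0.545 in control islets and -0.538 in labelled-knockout islets (Spearman rho -0.579 and -0.568), beside -0.352 and -0.309 over 15084 genes. Genes are not independent replicates, and they share libraries and depth. The 5 genes under 1000 exonic bases (Sec61b, Ssr4, Srp19, Sec11c and Tmem258) and the 10 between 1000 and 2000 bases all rose in both genotypes, where 43.9% and 33% of the genes tested in those classes rose in control islets. Of the 19 genes over 2000 bases, 12 rose in control islets and 14 in labelled-knockout islets, and 0 fell, beside 13.8% and 15.3% of the genes tested that rose and 25.4% and 25.1% that fell. The median of these 19 was 0.31 and 0.32, against -0.10 and -0.08 over the genes tested of that length. Dad1 (3916 bases) and Rpn1 (3633 bases) were among the genes over 2000 bases by this measure that rose. The length of the transcripts present was not measured.

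**Figure D4:**
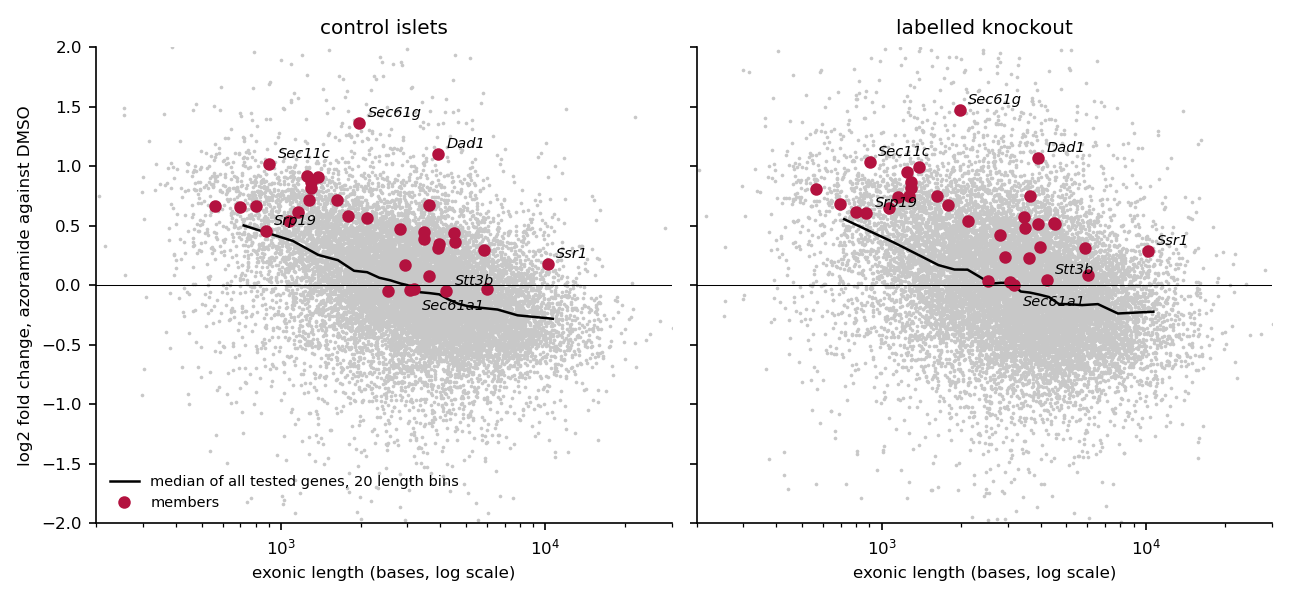
Log2 fold change of azoramide against DMSO (vertical axis, drawn from -2 to 2) against exonic length in bases (log axis) for the genes tested (grey), their median in 20 length bins (line) and the 34 genes (red), in control islets (left) and labelled-knockout islets (right). The line falls with length, and most red points lie above it, with Sec61a1 and Stt3b near 0.

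When each library's trend over exonic length and GC content was fitted as an offset, 23 of the 34 genes rose and 1 fell in control islets, against 12.4% and 7.94% of the genes tested. In labelled-knockout islets 21 rose and 0 fell, against 12.6% and 9.29%. The medians were 0.25 and 0.28, and the correlation with length was -0.0616 and -0.0322. Dad1 (1.12 and 1.07), Sec61g (1.08 and 1.14), Rpn1 (0.78 and 0.86), Ssr2 (0.72 and 0.70), Krtcap2 (0.70 and 0.73), Ddost (0.60 and 0.62) and Rpn2 (0.54 and 0.51) kept a call with the offset. All values with the offset depend on the exonic length given to a gene, such as 3916 bases for Dad1 and 1977 for Sec61g. For a gene whose transcripts are much shorter than its joined exons, the offset may correct too little. Other measures of length were not tested. Other genes kept a call at a smaller value. In control islets Spcs1 went from 0.81 to 0.26, Tusc3 from 0.71 to 0.25, Ssr4 from 0.66 to 0.27, Srp14 from 0.61 to 0.27, Sec61b from 0.66 to 0.33, Ost4 from 0.72 to 0.43, Sec11c from 1.02 to 0.52 and Magt1 from 0.36 to 0.24. In labelled-knockout islets Spcs1 went from 0.87 to 0.25, Tusc3 from 0.75 to 0.22, Srp14 from 0.74 to 0.37, Sec61b from 0.81 to 0.48, Ost4 from 0.75 to 0.45, Ssr3 from 0.51 to 0.28 and Magt1 from 0.51 to 0.33. Ssr1 was called in control islets with the offset (0.35). Calls ended for Tram1 (-0.06 and -0.05), Ostc (0.08 and 0.13) and Tmem258 (0.20 and 0.18) in both genotypes, for Ssr3 (0.14) in control islets, and for Sec62 (0.15), Ssr4 (0.19), Srp19 (-0.14), Srp72 (0.14) and Stt3a (0.20) in labelled-knockout islets. Srp19, a short gene of 876 exonic bases, turned from a rise to a fall in control islets (-0.20, edgeR adjusted p = 0.0499). By role, in control and labelled-knockout islets, the offset left 5 and 5 of 5 signal peptidase genes rising, 9 and 8 of 12 of oligosaccharyltransferase, 3 and 3 of 4 of TRAP, 3 and 2 of 6 of the translocon, and 3 and 3 of 7 of the signal recognition particle with 1 and 0 falling. The source of the length trend was not tested.

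With plain library totals in place of TMM scaling, the median of all genes tested moved to -0.19 in control islets and -0.16 in labelled-knockout islets. Under this scaling 24 of the 34 genes rose and 4 fell in control islets, against 10.8% and 32.8% of the genes tested, and 24 rose and 0 fell in labelled-knockout islets, against 12.4% and 30.1%. The 4 that fell were Sec61a1 (-0.20), Sec63 (-0.20), Srp68 (-0.22) and Stt3b (-0.22), close to the median of all genes. Ssr3 in control islets, Sec62, Ssr1 and Srp72 in labelled-knockout islets, and Stt3a and Tram1 in both were no longer called. By role, plain totals left 5 and 5 of 5 signal peptidase genes rising, 10 and 10 of 12 of oligosaccharyltransferase with 1 and 0 falling, 2 and 3 of 4 of TRAP, 3 and 2 of 6 of the translocon with 2 and 0 falling, and 4 and 4 of 7 of the signal recognition particle with 1 and 0 falling.

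**Figure D5:**
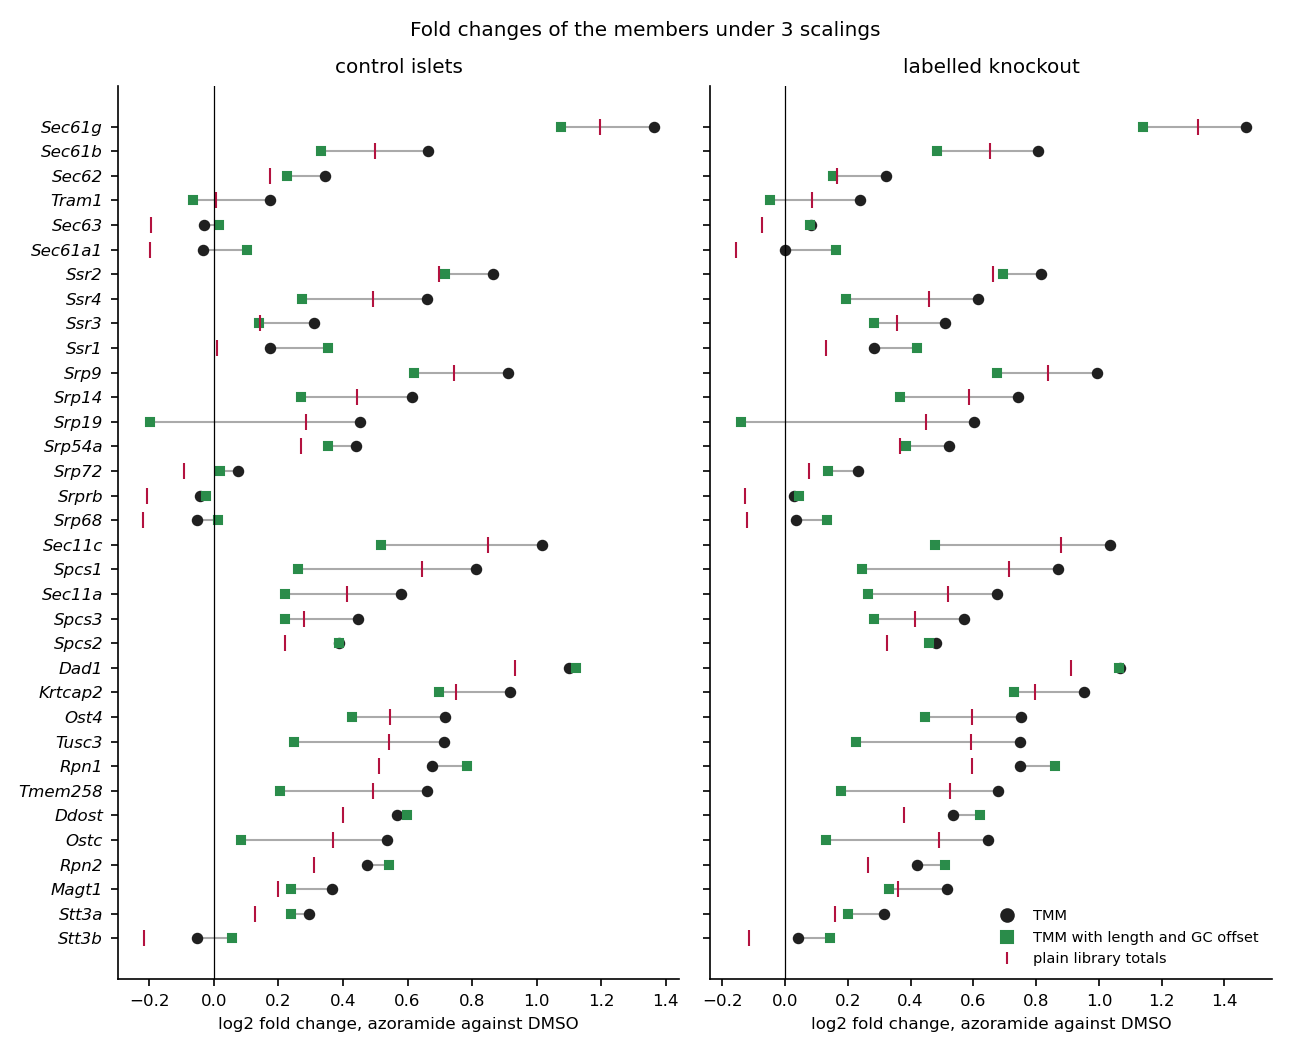
Log2 fold change of azoramide against DMSO (horizontal axis) for the 34 genes under TMM scaling (black), TMM with the offset for length and GC content (green) and plain library totals (red bars), in control islets (left) and labelled-knockout islets (right). The offset moves Srp19 below 0 and leaves Dad1 at 1.12 and 1.07, and plain totals shift the genes left together.

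Genotype was compared within each treatment. With DMSO, labelled-knockout islets differed from control islets by -0.18 to 0.05 over the 34 genes (median -0.05, SE 0.06 to 0.13), and edgeR called 0 of them and 0% of the genes tested. Srp14 had the lowest value, -0.18 (SE 0.07, unadjusted p = 0.0192, adjusted p = 0.999), and was the 1 gene of the 34 with an unadjusted p under 0.05, where 531 of 15093 genes had one. Its levels were 69.5, 73.9 and 78.1 CPM in control islets and 63.8 and 66.2 CPM in labelled-knockout islets, which did not overlap. With azoramide the differences ran from -0.11 (Ost4) to 0.12 (Ssr3), with a median of 0.03. Again edgeR called 0 of the 34 genes and 0% of the genes tested, and 0 of the 34 had an unadjusted p under 0.05, against 754 genes in all. The DESeq2 Wald test called 0 of the 34 in both, and 3 and 2 genes in all.

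Whether azoramide acted differently in the genotypes was tested as an interaction, the effect in labelled-knockout islets less that in control islets. It lay between -0.06 (Rpn2) and 0.20 (Ssr3) over the 34 genes, with a median of 0.08 beside 0.01 over the genes tested. By edgeR 0 of the 34 genes and 0% of the genes tested passed, 0 of the 34 had an unadjusted p under 0.05, and the DESeq2 Wald test called 0. Ssr3, with the largest value, stood at 345, 397 and 429 CPM and at 480, 481 and 489.8 CPM in control islets with DMSO and azoramide, and at 365 and 372 against 503, 537 and 537 CPM in labelled-knockout islets (interaction SE 0.10, adjusted p = 0.999). The calls of Ssr1 and Srp72 in labelled-knockout islets and not in control islets are therefore not shown to differ between the genotypes.

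Neighbouring steps of the pathway held both rises and falls, to be read beside the 19.3% and 20% of all genes tested that rose and the 19.8% that fell in each genotype. Of 11 other targeting and translocon genes, 6 rose in control islets and 5 in labelled-knockout islets, and 0 fell (medians 0.31 and 0.58). Among them Naca and Btf3, subunits of the nascent polypeptide-associated complex that keeps the signal recognition particle off wrong ribosomes, rose by 0.68 each and by 0.72 and 0.66. Tmem208, of a targeting route independent of the particle, rose by 0.77 and 0.79. Of 10 genes of the ER membrane complex, an insertase, 6 rose and 1, Emc1, fell in both genotypes, with Emc7 at 0.57 and 0.59, Emc2 at 0.65 and 0.71 and Emc3 at 0.53 and 0.45. Emc2 was at 0.07 and 0.06 with the offset for length and GC content.

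Of 7 genes of tail-anchor insertion, control islets had 2 that rose and 1 that fell (28.6% and 14.3%, near the shares over all genes), and labelled-knockout islets 3 and 2 (42.9% and 28.6%). Get3, the targeting ATPase, rose by 0.56 and 0.53, and Ubl4a, of the complex that hands the protein over to it, rose by 0.31 and 0.21, calls that ended with plain library totals (0.14 and 0.06) and, in labelled-knockout islets, with the offset (0.22). Bag6, of the same complex, fell by 0.44 and 0.46, with -0.05 and -0.01 under the offset. Of 6 genes of the multipass translocon, 4 rose, among them Tmco1 (0.63 and 0.71), Ccdc47 (0.39 and 0.50) and Wdr83os (0.60 and 0.36), and Nomo1 and Ncln fell in both genotypes. Wdr83os lost both calls with the offset (0.22 and -0.05), and its labelled-knockout call with plain library totals (0.21). With the offset for length and GC content, rises and falls were both fewer: 4 genes of the ER membrane complex and 2 of the multipass translocon rose in each genotype, 2 and 1 of the tail-anchor list rose, and 0 genes of these 3 lists fell.

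The 23 genes that assemble the glycan on its lipid carrier rose in 8 cases (34.8%) and fell in 2 (8.7%) in each genotype, with medians of 0.18 and 0.20, beside 0.61 and 0.66 for the transferase itself. With the offset 4 and 3 of the 23 rose and 2 and 1 fell, where 12.4% and 12.6% of all genes rose. Alg5, which makes the glucose donor, rose by 0.91 and 0.84, and Dpm1 and Dpm3, of the mannose donor synthase, by 0.41 and 0.64 and by 0.43 and 0.61, with the labelled-knockout calls of both ended by the offset (0.18 and 0.27). Of 8 genes of glycan trimming and lectins, 3 rose in each genotype (37.5%), while 1 fell in control (12.5%) and 2 in labelled-knockout islets (25%). Calr, the lectin chaperone calreticulin, rose by 0.58 and 0.71 and Ngly1, which removes glycans from misfolded proteins in the cytosol, by 0.56 and 0.54, while Uggt1, the folding sensor that reglucosylates glycoproteins, fell by 0.29 and 0.23. With the offset for length and GC content Uggt1 was at 0.01 and 0.05 and was not called. No difference between these lists and the 34 genes was tested.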

How the data were processed

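RNA from 11 islet libraries was read from 1 table of raw counts per gene, which the authors deposited unnormalized; the unit was checked from the values. The submitters' processing notes name STAR 2.7.2a, the mouse build mm10 and DESeq2 with no role; how reads were counted, on which annotation and with what use of strand is not given in the sources used. Groups and replicate numbers came from the sample titles. All 11 libraries were kept as separate samples.

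From the counts, edgeR 4.0.16 in R 4.3.3 fitted 1 quasi-likelihood model over the 4 groups (robust, TMM scaling, genes of low count removed by filterByExpr), over 15093 genes. The p-values were adjusted over these genes by the method of Benjamini and Hochberg and called under 0.05; fold changes are given on the log2 scale with their SE. Levels are CPM after TMM scaling. The 34 genes held 524 to 10004 counts per library. Exonic lengths, GC content, coordinates (1-based) and overlaps came from GENCODE M21 on GRCm38, which covered 32158 of 32285 genes. The exonic length of a gene joins the exons of its annotated transcripts, and level per length is CPM per kilobase of it. The offset for length and GC content was a smooth trend (mgcv 1.9.3, k of 8) fitted per library. On simulated counts, the edgeR comparison of azoramide with DMSO in control islets was tested. This was done with and without a length trend and with and without the offset. The other steps were not tested in this way.

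The 34 genes, the role lists and the other lists were chosen with earlier results of these data known. Values in every library are given, within each role, for the gene with the highest mean level per length, the called genes with the largest rise and fall in control islets, and the 3 related pairs; Sec61a1, Srp68, Srp14 and Ssr3 were added after their values were seen. In each of the other 6 pathway lists up to 3 called genes of smallest p in control islets are named; Emc1, Nomo1, Ncln, Srp54b and Srp54c were added after their values were seen. Alternatives were DESeq2 1.42.0 size factors and Wald test, plain library totals, no filter, fits of the compared groups alone, the offset, an acinar marker covariate, a replicate block, and leaving out each library or both that stood apart. The pair ratios with the offset and without single libraries were added after the data were seen.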

Additional observations from a re-analysis of the deposited data

How the results depend on the processing

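Of the 34 genes, 24 to 28 were called for azoramide in control islets and 21 to 29 in labelled-knockout islets under 9 alternatives; leaving out each library in turn gave 26 to 28 and 26 to 29. The counts for genotype and for the interaction stayed at 0 of 34 in each alternative run. The counts for azoramide are of calls in either direction, and in control islets they include 1 fall with the offset and 4 falls with plain library totals. Among single genes the sign turned as follows, and apart from Srp19 none of the turned values was called. The cause was not tested. In control islets the length and GC offset gave Sec61a1 0.10, Sec63 0.015, Tram1 -0.063, Srp19 -0.20, Srp68 0.014 and Stt3b 0.056, and plain library totals gave Srp72 -0.093. Without both libraries that stood apart Sec61a1 was at 0.065, Srp68 at 0.024, Srprb at 0.042 and Stt3b at 0.0088. In labelled-knockout islets the offset gave Sec61a1 0.16, Tram1 -0.048 and Srp19 -0.14, plain totals gave Sec63 -0.074, Srp68 -0.12, Srprb -0.13 and Stt3b -0.115, and the acinar covariate gave Srp68 -0.034 and Srprb -0.043. There Sec61a1 was at 0.0057 with DESeq2 size factors and the Wald test, 0.0042 without a filter and 0.0090 without both libraries. The offset turned the log2 ratio of Tusc3 to Magt1 to -0.054.

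Leaving out each library in turn gave ranges of -0.11 to 0.065 for Sec61a1, -0.070 to 0.026 for Sec63, -0.091 to 0.024 for Srp68, -0.13 to 0.042 for Srprb and -0.12 to 0.0086 for Stt3b in control islets. In labelled-knockout islets it gave -0.018 to 0.0090 for Sec61a1 and -0.014 to 0.082 for Srprb. A library left out of the labelled-knockout DMSO group leaves 1 there, which is then assumed to vary like the other groups.

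The replicate numbers are not said to mark shared mice or days. In control islets the deviations from the group means had r of 0.0625, 0.107 and -0.0162 between same-numbered libraries of the 2 treatments. Between differently numbered control libraries r was -0.104 to 0.0643. In labelled-knockout islets r was 0.0366 and -0.144 for same numbers. The deviations of 2 DMSO libraries from their mean mirror each other, so these last values cannot show or exclude pairing. With the replicate number as a block 28 and 29 of the 34 genes were called, with medians of 0.51 and 0.57, Ssr1 gained a call in control islets (0.18) and Sec61a1 was at 0.0082 in labelled-knockout islets; 0 were called for genotype and interaction.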
